A study of Schizosaccharomyces pombe with 36 samples.

Results

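The rif1 and taz1 genes were examined in Schizosaccharomyces pombe libraries of polymerase usage sequencing, which counts DNA ends left where ribonucleotides were cleaved by alkali. Each gene was taken with 10 kb on each side, which gave 83 bins of 300 bp around rif1 and 75 around taz1, or 158 of 41813 bins in the genome. The genes are 2 of 12127 annotated genes tested, and all 36 libraries cover both windows. Members were set by position, but with earlier results of these data known. Both genes are listed as deleted in strains compared here, so their loss in those strains was given by the labels. A level here is the number of ends in a bin, or the mean over the bins centred in a gene, divided by the median bin of that library.

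The libraries form 9 groups with 2 libraries for a mutant DNA polymerase delta (gene cdc6) and 2 for a mutant DNA polymerase epsilon (cdc20). Cultures were in log phase in a rich yeast medium. All strains carry an altered rnh201, the gene of the catalytic subunit of RNase H2, either a deletion or the allele listed as rnh201-RED, so ribonucleotides stay in the strand that the mutant polymerase made, and all carry leu1-32. The rif1 deletion strains (25 °C and 34 °C) are listed as rif1::BSD with rnh201::kan, ade6-704 and ura4-D18. The stn1-226 rif1 deletion and stn1-226 strains (25 °C and 34 °C each) carry the temperature-sensitive allele stn1-226, an rnh201 deletion marked with hphNT1, lox-flanked cdc6-I591G or cdc20-M630F, and ura4-. How the rif1 allele of the stn1-226 rif1 deletion strains was made is not in the labels. The taz1 deletion strains, with no temperature given, are listed as taz1::NAT in the background of wild type. Wild type (25 °C and 34 °C) is rnh201-RED:kan with ade6-704 and ura4-D18. The polymerase alleles outside the stn1-226 strains are cdc6-L591G and cdc20-M630F. Each polymerase and genotype is 1 listed strain, so p-values measure only the spread between these libraries, which may be technical. Comparisons with wild type also compare these backgrounds.

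Rif1 brings protein phosphatase 1 to chromatin, where it holds back late replication origins, and it also acts at telomeres. Taz1 binds double-stranded telomeric repeats as part of shelterin, the protein complex that covers chromosome ends, and helps forks pass through them. Stn1, with Ten1, caps telomeres and assists in filling in the lagging strand. Fork movement is read from strand bias: Pol epsilon makes the leading strand and Pol delta the lagging strand, so a fork moving right leaves ends of each polymerase on opposite strands. Which strand stands for a rightward fork was set for each polymerase from these same data. The sharper strand switches over the genome were taken as initiation.

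The rif1 gene lies at chrI:2766273-2770704 on the forward strand of ASM294v3, with 1 uninterrupted coding part at 2766370-2770572 that encodes 1400 residues. The taz1 gene lies at chrI:3091021-3093260 on the reverse strand, with 1 coding part at 3091237-3093228 that encodes 663 residues. The sequences printed here are on the forward strand and read from the RefSeq genome of that build. They lie in or beside stretches that lost their ends, apart from the third, which lies in a bin that kept its ends. The first runs from the start codon of rif1, in capitals, to the last base before the stretch that lost its ends in rif1 deletion libraries (chrI:2766370-2766600). The second runs from the base after that stretch to the stop codon of rif1, in capitals (chrI:2770501-2770572). The third is a bin inside the rif1 coding sequence (chrI:2767201-2767500), chosen after its values were seen. Its levels in stn1-226 rif1 deletion libraries were 0.424 to 1.28, and its difference from stn1-226 did not pass the test. It has no capitals because bins do not resolve a position in it. The fourth is the stretch upstream of taz1 without ends in taz1 deletion libraries (chrI:3093261-3093500), with bases of the noncoding gene SPNCRNA.885 in capitals.
rif1 coding start: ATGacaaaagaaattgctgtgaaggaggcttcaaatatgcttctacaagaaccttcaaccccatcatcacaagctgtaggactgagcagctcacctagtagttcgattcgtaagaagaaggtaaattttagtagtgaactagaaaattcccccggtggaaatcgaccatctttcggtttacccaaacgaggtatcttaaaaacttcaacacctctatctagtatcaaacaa
rif1 coding end: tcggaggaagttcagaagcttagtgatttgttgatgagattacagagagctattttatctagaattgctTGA
rif1 inner bin: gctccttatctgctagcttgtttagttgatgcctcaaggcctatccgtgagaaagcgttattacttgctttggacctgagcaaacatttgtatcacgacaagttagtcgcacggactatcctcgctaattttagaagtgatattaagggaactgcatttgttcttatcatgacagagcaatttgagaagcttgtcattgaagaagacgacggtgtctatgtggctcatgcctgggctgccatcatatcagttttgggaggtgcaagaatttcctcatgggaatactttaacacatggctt
taz1 upstream stretch: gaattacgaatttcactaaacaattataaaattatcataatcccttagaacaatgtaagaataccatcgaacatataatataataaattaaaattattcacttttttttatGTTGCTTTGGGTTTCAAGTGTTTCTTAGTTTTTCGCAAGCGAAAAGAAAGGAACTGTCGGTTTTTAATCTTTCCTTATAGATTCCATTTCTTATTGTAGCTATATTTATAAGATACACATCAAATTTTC

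Total ends per library ranged from 2211932 to 25777570 and the median bin held 39 to 575 ends. On chromosome I, G+C content accounted for 40.4% of the variance of detrended ends in rif1 deletion 25 °C Pol delta replicate 1. It accounted for 54.2% in Pol epsilon replicate 2 of that group. The highest value in any other library was 19.4% (stn1-226 at 34 °C, Pol epsilon replicate 1). Whether this shapes the counts called in comparisons with rif1 deletion at 25 °C was not tested. The ura4 gene, which encodes orotidine phosphate decarboxylase and serves as a marker, held ends in wild type libraries although the labels give ura4-D18. Its level was 1.26 in replicate 2 of Pol delta and 0.272 in replicate 2 of Pol epsilon at 25 °C, and 0.117 in replicate 2 of Pol delta and 0.0349 in replicate 2 of Pol epsilon at 34 °C. In the other 4 wild type libraries it was at most 0.00496. The stn1-226 and stn1-226 rif1 deletion libraries, listed as ura4-, had ura4 levels of 0.389 to 1.78, and the rif1 deletion and taz1 deletion libraries had at most 0.0197. Without replicate 2 of wild type at 25 °C, values were recomputed for rif1, taz1, the counts of bins, SPNCRNA.885 and 1 block of fork direction, and are given beside them. The other tests that use wild type at 25 °C were not repeated in this way here. The 4 taz1 deletion libraries stood apart in strand bias: the SD of fork direction over 3 kb blocks was 0.27 to 0.57 log2 in them, against 0.81 to 2.03 log2 in the others.

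Ends over most of rif1 were missing from the rif1 deletion libraries. The emptied stretch, defined as bins in which every library of the group was under 10% of its median bin, was chrI:2766601-2770500 at both temperatures, 13 bins or 3900 bp. At 25 °C the 4 rif1 deletion libraries held 0, 2, 5 and 5 ends in it, against 2313 to 3953 ends in the wild type libraries. At 34 °C they held 0, 0, 6 and 9 ends, against 2927 to 6598 ends in wild type. No rif1 deletion library overlapped any wild type library. Relative to wild type, the mean level over the stretch was 0.0478% at 25 °C and 0.138% at 34 °C. It begins 231 bases after the first base of the start codon and ends 72 bases before the last base of the stop codon.

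**Figure D1:**
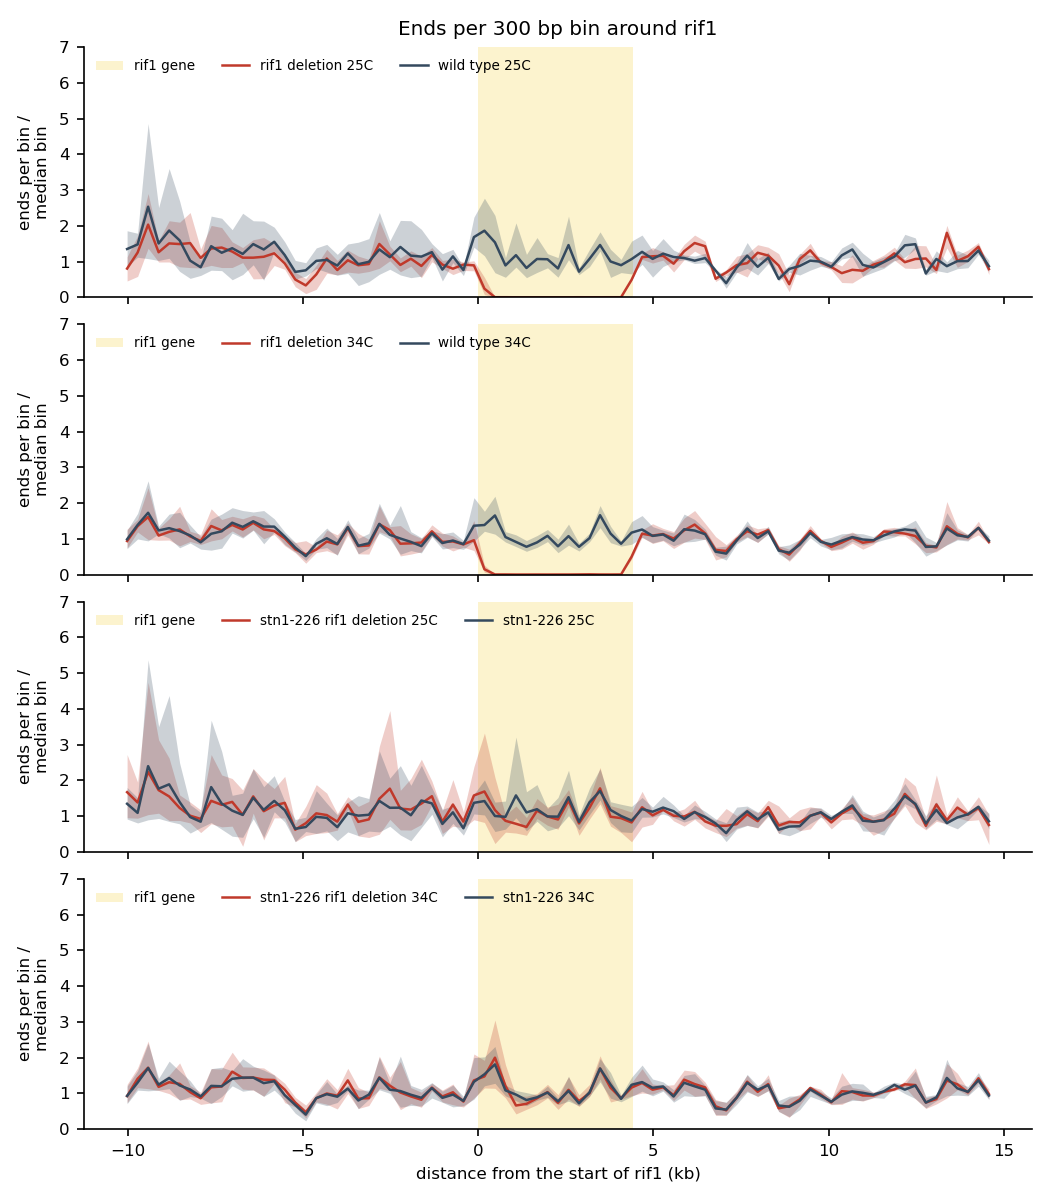
Ends per 300 bp bin divided by the median bin (y axis) against distance from the start of rif1 in kb (x axis), with lines for the mean of 4 libraries, shaded ranges from the lowest to the highest library, and rif1 in yellow. The rif1 deletion lines lie at 0 over 13 bins of rif1, while the stn1-226 rif1 deletion lines stay above 0 across it.

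Ends at the left edge of that stretch came from 1 strand. In the bin chrI:2766301-2766600, which holds the start codon, the levels of the rif1 deletion libraries at 25 °C were 0.0737, 0.0772, 0.252 and 0.557, against 1.16 to 2.77 in wild type. At 34 °C the levels were 0.0633, 0.0641, 0.202 and 0.263 in rif1 deletion, against 1.21 to 1.77 in wild type. The groups did not overlap, and in each temperature the 2 Pol delta libraries of rif1 deletion were the higher ones. Reverse strand levels there were 0.134 to 1.11 in rif1 deletion at 25 °C and 0.566 to 1.5 in wild type, whereas forward strand levels were at most 0.0203 in rif1 deletion and 0.821 to 4.94 in wild type. The bin fell by 3.31 on the log2 scale at 25 °C (SE 0.27, adjusted p = 4.1e-08, edgeR) and by 3.47 at 34 °C (SE 0.28, adjusted p = 3.0e-08, edgeR).

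At the right edge, chrI:2770501-2770800, the drop was partial. This bin holds the last 72 coding bases of rif1 and 228 bases beyond them. Its levels were 0.471 to 0.504 in rif1 deletion at 25 °C, against 0.652 to 1.57 in wild type, and 0.43 to 0.572 at 34 °C, against 0.847 to 1.48. At 25 °C reverse strand levels overlapped, at 0.115 to 0.8 in rif1 deletion and 0.373 to 2.17 in wild type. At 34 °C they were 0.0154 to 0.444 in rif1 deletion and 0.765 to 2.17 in wild type, while forward strand levels, 0.499 to 1.13 and 0.533 to 1.58, overlapped. The bin's levels did not overlap between groups, but the log2 differences of -1.1 (SE 0.31) and -1.21 (SE 0.31) did not pass the test (edgeR adjusted p = 0.0603 and 1). The next bins outward, at chrI:2766001-2766300 and chrI:2770801-2771100, had levels of 0.671 to 1.51 in rif1 deletion libraries.

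As a gene, rif1 fell by 4.57 on the log2 scale in rif1 deletion at 25 °C (SE 0.12, adjusted p = 2.1e-16, edgeR) and by 4.63 at 34 °C (SE 0.12, adjusted p = 2.2e-16, edgeR). Its levels were 0.0714, 0.038, 0.0482 and 0.0381 in the rif1 deletion libraries at 25 °C, against 1.06 to 1.19 in wild type. At 34 °C they were 0.049, 0.0329, 0.0515 and 0.0439 in rif1 deletion, against 1.03 to 1.12 in wild type. What remained came almost all from the edge bins. At each temperature 4 genes were lower, 0.033% of those tested at 25 °C and 0.033% at 34 °C, and all 4 were rif1 and the noncoding genes SPNCRNA.3242, SPNCRNA.3243 and SPNCRNA.852 that run antisense to it. Counts sum both strands, so these noncoding genes share their bins with rif1 and are not separate losses. The only bin counted for SPNCRNA.3242 is the left edge bin described above. SPNCRNA.3242, over the start of rif1, fell by 3.34 at 25 °C and by 3.49 at 34 °C on the log2 scale (edgeR adjusted p = 1.3e-07 and 1.1e-07). With Pol delta alone the values were -1.66 and -2.36, which did not pass, and over every bin that overlaps the gene -1.65, which passed, and -1.38, which did not. The other 20 of 24 genes tested in the window did not pass with edgeR, while DESeq2 called 1 of them, as higher, at 25 °C. Among those not called by edgeR was tpz1, which encodes a shelterin subunit and lies next to rif1, at levels of 0.843 to 1.17 in rif1 deletion and 0.763 to 1.5 in wild type at 25 °C.

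Of the bins lower in rif1 deletion at 25 °C, 14 of 16 lay in the rif1 window, and the 16 are 0.0383% of bins tested. That share of the lower bins holds for this fit only: 1405 bins were lower in the genome with the replicate block in edgeR, 15 of them in the window, and 2613 with DESeq2, 21 of them in the window. At 34 °C all 14 lay there, 0.0335% of bins tested. In both cases they were the emptied stretch and its left edge bin. Around taz1 0 of 75 bins passed with edgeR, with 24 at an unadjusted p under 0.05 at 25 °C and 0 at 34 °C. Over the genome 10586 of 41811 bins had an unadjusted edgeR p under 0.05 at 25 °C and 105 at 34 °C. DESeq2 called 11 bins around taz1 at 25 °C and 0 at 34 °C, against 4852 and 15 of 41811 over the genome. Without replicate 2 of wild type at 25 °C the rif1 difference was -4.58 and the count in the rif1 window again 14.

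In the libraries labelled stn1-226 rif1 deletion, rif1 was covered along its length. Its levels were 1.04, 1.08, 0.961 and 1.25 at 25 °C, against 1.18, 1.09, 1.36 and 1.1 in stn1-226, and 1.04, 1.09, 1.04 and 1.2 at 34 °C, against 1.1, 1.09, 1.12 and 1.15. The ranges overlapped at both temperatures, and no bin of rif1 met the definition of an emptied one. The log2 differences were -0.12 (SE 0.10) and -0.03 (SE 0.10), both with an adjusted p of 1 by edgeR. The stretch missing in the rif1 deletion strains was thus present in the libraries labelled as carrying both changes, which goes against the label if it names the same deletion. Over the genome these libraries did differ from stn1-226 in fork direction, in 865 of 4180 blocks at 25 °C and 712 at 34 °C. Across all genes and bins 0% were called in either comparison at 25 °C or 34 °C by edgeR, and 0 by DESeq2, with 148 and 77 genes and 283 and 84 bins at an unadjusted p under 0.05 by edgeR.

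Set against rif1 deletion, rif1 was higher in stn1-226 rif1 deletion by 4.52 on the log2 scale at 25 °C (SE 0.12, adjusted p = 2.6e-16, edgeR) and by 4.63 at 34 °C (SE 0.12, adjusted p = 2.2e-16, edgeR). The same 4 genes of the window passed at each temperature, where 0.198% of genes were higher at 25 °C and 0.181% at 34 °C. In the rif1 window 14 bins were higher at each temperature, against 0.148% of all bins at 25 °C and 0.122% at 34 °C. Levels of rif1 in stn1-226 libraries, which carry no rif1 allele in their labels, differed from wild type by 0.07 (SE 0.10) at 25 °C and by 0.04 (SE 0.10) at 34 °C, with an edgeR adjusted p of 1 for each.

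A single bin inside rif1, chrI:2767201-2767500, had lower levels in stn1-226 rif1 deletion than in matching stn1-226 libraries but did not pass the test. It starts 831 bases after the first base of the start codon and covers codons 278 to 377, and its sequence is the third shown above. It was chosen after its values were seen. At 25 °C its levels were 0.732 and 1.28 with Pol delta and 0.599 and 0.525 with Pol epsilon in stn1-226 rif1 deletion, against 1.17 and 3.21 with Pol delta and 0.979 and 0.952 with Pol epsilon in stn1-226. At 34 °C they were 0.925 and 0.645 with Pol delta and 0.424 and 0.644 with Pol epsilon in stn1-226 rif1 deletion, against 1.03 and 0.957 with Pol delta and 0.793 and 1.08 with Pol epsilon in stn1-226. Each stn1-226 rif1 deletion library was below the stn1-226 library of the same polymerase, temperature and replicate number, in 8 of 8 pairs, although the ranges of the groups overlapped.

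The log2 difference of that bin was -0.97 (SE 0.30) at 25 °C and -0.58 (SE 0.29) at 34 °C, and it did not pass over all bins (edgeR adjusted p = 1 for both). At 25 °C it was -0.53 without stn1-226 Pol delta replicate 2, the library at 3.21. Of 18597 bins of chromosome I, 88 (0.473%) were lower in all 8 pairs, and this bin had the lowest mean difference, -0.666 log2 after 0.1 was added to each level. On the forward strand it was lower in 8 of 8 pairs, by 0.871 log2 on average, and on the reverse strand in 8 of 8, by 0.616. The lowest forward pair was -1.76, and the lowest forward level in stn1-226 rif1 deletion at 25 °C was 0. Both strands are parts of the values by which the bin was chosen, so they add no separate evidence. In the next bin, chrI:2767501-2767800, reverse strand levels were lower in 8 of 8 pairs and forward strand levels in 3 of 8. The bin before, chrI:2766901-2767200, had a mean difference of -0.0199 log2 on both strands together.

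**Figure D2:**
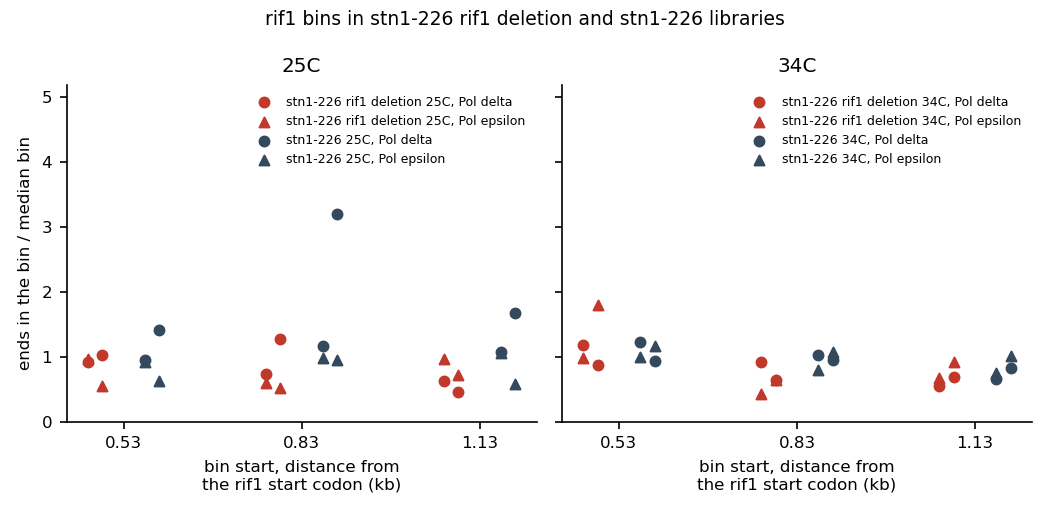
Ends in each of 3 neighbouring bins of rif1 divided by the median bin (y axis), by distance of the bin start from the start codon in kb (x axis), for every stn1-226 rif1 deletion (red) and stn1-226 (dark) library, circles for Pol delta and triangles for Pol epsilon. In the middle bin the stn1-226 rif1 deletion libraries span 0.424 to 1.28 and the stn1-226 libraries 0.793 to 3.21.

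Ends over taz1 were missing from the taz1 deletion libraries. The emptied stretch was chrI:3091101-3093500, 8 bins or 2400 bp, with 0 ends in each of the 4 libraries, against 1531 to 3397 ends in the 8 wild type libraries. With a floor of 3 ends over the group, the level was at least 3820-fold lower than the wild type mean. The stretch holds the whole coding sequence of taz1 and reaches 240 bp upstream of the gene, the fourth sequence shown above. The edge bins, at chrI:3090801-3091100 and chrI:3093501-3093800, had levels of 0.219 to 0.287 and 0.186 to 0.424, between those of the stretch and the genome median. The bins of taz1 deletion libraries are offset from those of the others by 200 bp, and a test bin was matched to the one that it overlaps by that much.

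As a gene, taz1 fell by 5 on the log2 scale against the mean of wild type at 25 °C and 34 °C (SE 0.13, adjusted p = 1.8e-18, edgeR). Its levels were 0.0283, 0.0274, 0.0326 and 0.0359 in taz1 deletion, against 0.831 to 1.16 in wild type at 25 °C and 0.873 to 1.13 at 34 °C. No library overlapped, and 4 genes were lower, 0.0335% of those tested. Besides taz1 they were SPNCRNA.3385, antisense within taz1, with 0 ends in every taz1 deletion library against 721 to 1678 in wild type, SPNCRNA.885, and the noncoding gene IRC1-L, which lies outside the windows. SPNCRNA.885 begins inside the emptied stretch, which takes 129 of its bases, and its levels were 0.695 to 0.771 in taz1 deletion, against 0.966 to 1.26 in wild type at 25 °C and 0.912 to 1.08 at 34 °C. It fell by 0.47 on the log2 scale (SE 0.09, adjusted p = 0.00625, edgeR). Without replicate 2 of wild type at 25 °C the difference of SPNCRNA.885 was -0.51 (adjusted p = 0.0103) and that of taz1 -4.94. SPNCRNA.885 no longer passed without replicate 1 of Pol delta or of Pol epsilon of taz1 deletion (-0.43 each), with Pol delta alone (-0.39) or Pol epsilon alone (-0.55), with wild type at 34 °C alone (-0.39), with bins of taz1 deletion libraries apportioned to the other grid (-0.37), or with only the compared groups in the fit (-0.47).

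**Figure D3:**
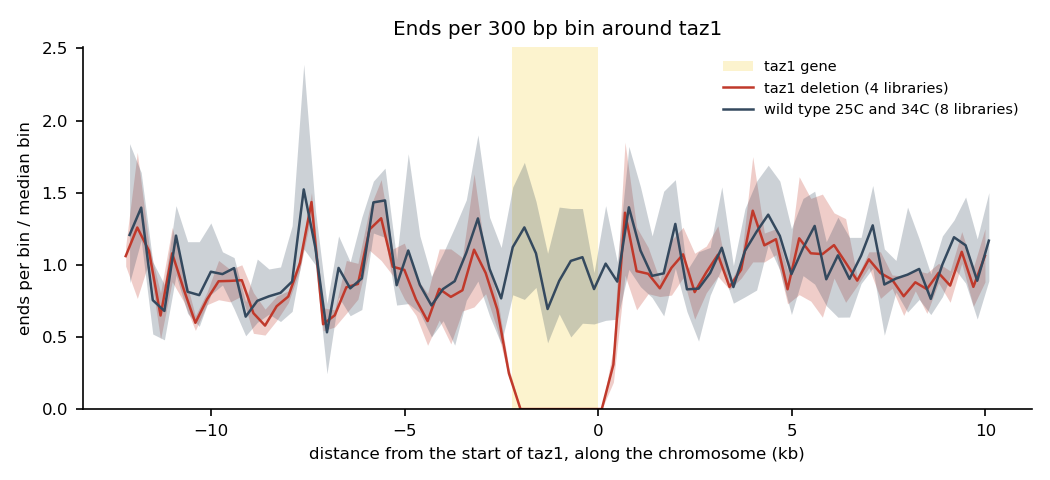
Ends per 300 bp bin divided by the median bin (y axis) against distance from the start of taz1 along the chromosome in kb (x axis), with lines for the mean and shading from the lowest to the highest of 4 taz1 deletion and 8 wild type libraries, and taz1 in yellow. The taz1 deletion line is at 0 over 8 bins, which pass beyond the start of the gene.

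The other 20 of 23 genes tested around taz1 did not pass. One is ter1, which encodes the telomerase RNA and had levels of 0.866 to 0.945 in taz1 deletion, 0.924 to 1.32 in wild type at 25 °C and 0.871 to 1.05 at 34 °C. Of the bins lower in taz1 deletion, 10 of 15 lay in the taz1 window (10 also without replicate 2 of wild type at 25 °C), and the 15 are 0.0365% of bins tested. In the rif1 window 0 genes and 0 bins passed in taz1 deletion with edgeR or DESeq2. There 0 genes and 6 of 83 bins had an unadjusted edgeR p under 0.05, against 446 of 11943 genes and 2865 of 41068 bins over the genome. Levels of rif1 in taz1 deletion libraries were 1.07 to 1.17.

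Ordered over the 9 groups, the mean level of rif1 was 0.0443 in rif1 deletion at 34 °C and 0.0489 at 25 °C, whose ranges overlapped, and then 1.08 to 1.18 in the other 7 groups, with each neighbour in that order overlapping the next. For taz1 the mean was 0.031 in taz1 deletion and 0.96 to 1.03 in the other 8, again with overlapping neighbours. Among genes outside the windows, SPNCRNA.5505, SPNCRNA.5256 and atg17, a gene of autophagy, had log2 levels most like rif1 over the 36 libraries (Pearson r = 0.66, 0.61 and 0.6). IRC1-L, SPBC1198.03C and fmp40 were most like taz1 (r = 0.76, 0.57 and 0.56). Each profile is low in the libraries of its own deletion and alike in the others, so r mainly reflects how a gene differs between those sets. These correlations are descriptions over libraries, several of which come from the same strain.

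Of 13 telomere genes (taz1, rap1, rif1, poz1, tpz1, ccq1, pot1, stn1, ten1, bqt3, bqt4, trt1 and est1), 1 passed in each deletion comparison: rif1, lower in rif1 deletion at both temperatures, and taz1, lower in taz1 deletion. The call in each was the gene deleted in that strain, so it says nothing of the other telomere genes, which did not pass. Over all genes 0.033% were lower in rif1 deletion at each temperature and 0.0335% in taz1 deletion. In stn1-226 rif1 deletion against stn1-226, 0 of 13 passed by edgeR at 25 °C and 34 °C. The median log2 difference of the list was between -0.07 and 0.02 in the comparisons with wild type, where the median of all genes was between -0.01 and 0. Of 6 genes altered in the strains per the labels (rnh201, ura4, ade6, leu1, cdc6 and cdc20), 0 passed in rif1 deletion or taz1 deletion against wild type. Even so, the lowest log2 difference in that list was -9.8 in rif1 deletion at 25 °C, -2.46 at 34 °C and -9.86 in taz1 deletion. That gene was ura4, whose levels differed widely between wild type libraries, as given above. In stn1-226 at 34 °C rnh201 fell by 0.65 on the log2 scale against wild type (edgeR adjusted p = 0.0216). Its levels there were 0.2 to 0.277, against 0.309 to 0.415 in wild type at 34 °C. Over all libraries they were 0.197 to 0.465, as rnh201 is altered in every strain. The listed rnh201 alleles of stn1-226 and wild type differ. In stn1-226 rif1 deletion at 25 °C ura4 was higher than in rif1 deletion (edgeR adjusted p = 0.00909).

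A strong initiation site lay to the left of rif1. Sites were local maxima of the initiation step, which sets ends labelled by forks that leave a place against ends of the opposite orientation, as a log2 ratio, over 10 bins each way. Of 528 sites in the genome, 1 lay in the rif1 window, at chrI:2761201-2761500, 4.8 kb left of rif1, with a step of 2.12 in the pooled libraries that ranked 49. It falls between noncoding genes SPNCRNA.3239 and SPNCRNA.3240, 872 bp from ypt5, a Rab-family GTPase gene, and 1124 bp from tpz1. Origins of this yeast are A+T rich, and this bin is 78.3% A+T, against a median of 64% over all bins and 72.7% over the 528 sites. Only 0.31% of bins are as rich. Its sequence is shown because the steps below are measured at it, with its longest run of A and T only, 22 bases, in capitals.
initiation site bin: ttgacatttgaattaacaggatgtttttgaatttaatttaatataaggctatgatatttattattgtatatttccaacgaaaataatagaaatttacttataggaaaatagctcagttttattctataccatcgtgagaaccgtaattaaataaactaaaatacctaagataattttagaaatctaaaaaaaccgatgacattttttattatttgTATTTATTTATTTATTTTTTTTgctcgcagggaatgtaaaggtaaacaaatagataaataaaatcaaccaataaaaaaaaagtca

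The next site to the right lies 15.4 kb beyond rif1, with a pooled step of 0.77. None of the 528 sites lies in the taz1 window, where the highest pooled step was 0.28. The nearest sites to taz1 lie 30.7 kb to its left, with a step of 1.92, and 33.6 kb to its right, with a step of 1.48.

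At the site left of rif1 the steps in rif1 deletion at 25 °C were 2.31, 2.51, 1.88 and 1.93, against 1.58 to 2.36 in wild type. At 34 °C they were 1.87, 1.41, 2.37 and 1.4 in rif1 deletion, against 1.96 to 2.56 in wild type. The groups overlapped at both temperatures, and the fitted differences of 0.09 and -0.42 did not pass (edgeR adjusted p = 0.968 and 0.199), where 7.58% of sites passed at 25 °C and 7.58% at 34 °C. The median over all sites was -0.047 at 25 °C and -0.259 at 34 °C. In stn1-226 rif1 deletion the steps were 1.81 to 2.92 at 25 °C and 1.97 to 2.26 at 34 °C, against 1.76 to 2.86 and 1.82 to 2.33 in stn1-226. The differences of -0.05 and 0.08 did not pass, where 7.01% of sites passed at 25 °C and 7.39% at 34 °C. The split of passing sites depended on the scaling and the tool: in rif1 deletion 13 were lower and 27 higher at 25 °C and 28 lower and 12 higher at 34 °C, but 28 and 37, and 23 and 36, with DESeq2 size factors in edgeR, and 41 and 44, and 35 and 37, with DESeq2 itself. In stn1-226 rif1 deletion they were 12 lower and 25 higher at 25 °C and 9 lower and 30 higher at 34 °C, but 17 and 29, and 15 and 35, with those size factors in edgeR, and 29 and 35, and 23 and 37, with DESeq2. Leaving out replicate 1 of Pol epsilon from rif1 deletion at 34 °C gave -0.66, which passed, and leaving out its replicate 2 of Pol epsilon gave -0.17, which did not.

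In taz1 deletion the steps at that site were 0.74, 0.09, 0.19 and 0.64, all below the lowest wild type library at 1.58. The median difference over all sites was -0.878. The difference of -1.71 here passed (edgeR adjusted p = 1.5e-07), but so did 85.2% of all sites, 436 lower and 0 higher. With DESeq2 156 sites were lower and 169 higher, and this site had -0.75, as it did with DESeq2 size factors in edgeR. Strand bias was low over the whole genome in these libraries, and whether its level sets the value here was not tested.

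**Figure D4:**
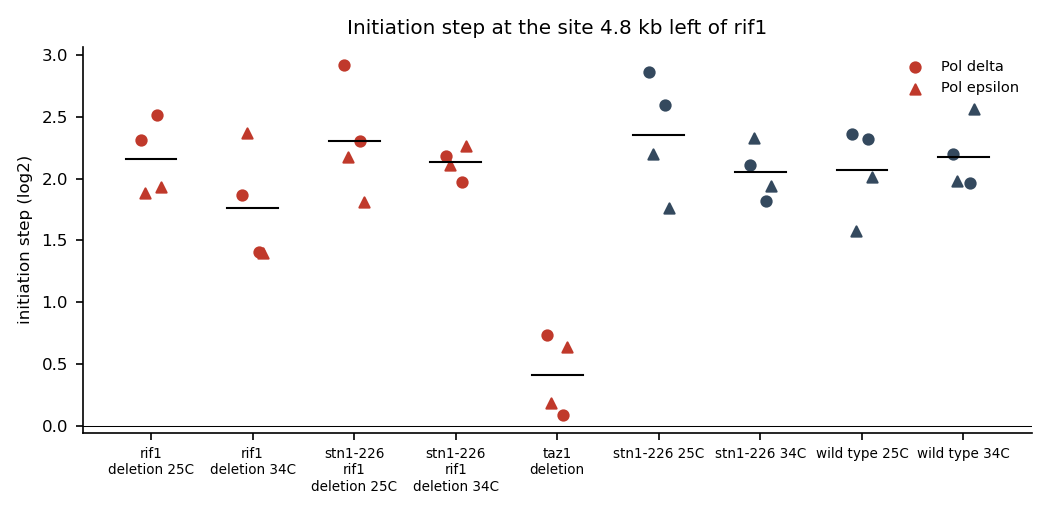
Initiation step in log2 units (y axis) at the site left of rif1 in every library, by group (x axis), circles for Pol delta, triangles for Pol epsilon and bars for the mean of 4 libraries. The taz1 deletion libraries lie between 0.09 and 0.74 and all others between 1.4 and 2.92.

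Fork direction, the log2 ratio of ends labelled by rightward forks to those labelled by leftward forks, changed sign at the site. In wild type at 34 °C its mean was 0.04 (SD 0.30, n = 4) in the 3 kb block at the site, chrI:2760001-2763000. It was 2.13 (SD 0.24, n = 4) in chrI:2763001-2766000, the block left of rif1. Over the 5′ part of rif1, chrI:2766001-2769000, it was 1.76 (SD 0.42, n = 4) in wild type at 34 °C and 1.62 (SD 0.41, n = 4) at 25 °C, rightward in all 8 libraries. Forks thus moved along rif1 in the direction of its coding strand. Rightward bias declined past the gene, to 0.35 (SD 0.40, n = 4) in chrI:2772001-2775000 in wild type at 34 °C.

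Of the 9 blocks around rif1, 1 passed in rif1 deletion at 25 °C, where 20.5% of all blocks passed. DESeq2 called it and also chrI:2754001-2757000, which was lower. The block called by both tools was chrI:2772001-2775000, over ppk6, a protein kinase gene, and etf2, an electron transfer flavoprotein gene. Its fork direction was 0.71 to 1.35 in rif1 deletion, against -0.75 to 0.9 in wild type, so the groups overlapped, and it was 0.87 higher (SE 0.26, adjusted p = 0.0187, edgeR). Without replicate 2 of wild type it was 0.91 higher (adjusted p = 0.04). It no longer passed when any of 4 libraries was left out: rif1 deletion Pol delta replicate 1 (0.82) or Pol epsilon replicate 1 (0.77), or wild type Pol delta replicate 1 (0.68) or Pol epsilon replicate 2 (0.73).

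At 34 °C 0 of the 9 blocks passed with edgeR (0 at an unadjusted p under 0.05, and 0 by DESeq2), where 17.6% of all blocks passed, and the same block was 0.49 higher (SE 0.26, adjusted p = 0.231). In stn1-226 rif1 deletion against stn1-226 0 of the 9 passed with edgeR at either temperature (again 0 unadjusted and 0 by DESeq2), where 20.7% of blocks passed at 25 °C and 17% at 34 °C. Against rif1 deletion, 0 of 4180 blocks passed by edgeR in stn1-226 rif1 deletion at either temperature, while an unadjusted p under 0.05 was reached by 50 blocks at 25 °C and by 65 blocks at 34 °C, and DESeq2 called 2 and 1. Within rif1 deletion libraries the blocks chrI:2766001-2769000 and chrI:2769001-2772000 rest on the bins that still hold ends.

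**Figure D5:**
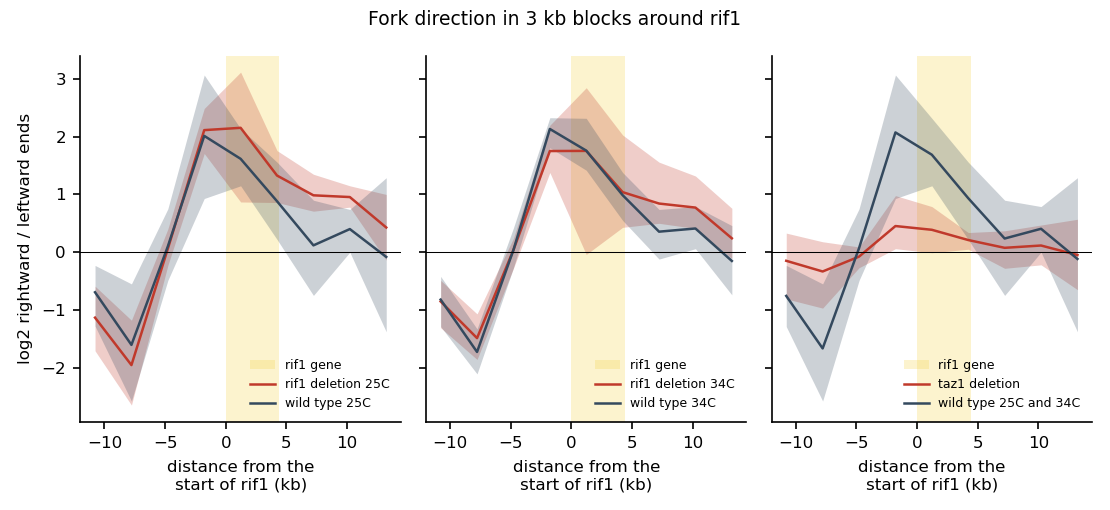
Fork direction as log2 of rightward over leftward ends (y axis) in 3 kb blocks by distance from the start of rif1 in kb (x axis), with means as lines and ranges as shading for rif1 deletion or taz1 deletion (red) and wild type (dark). Means cross 0 near the site left of rif1 and stay above it over rif1, while taz1 deletion lies closer to 0.

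Around taz1 the bias was weaker. In the block over most of the gene, chrI:3090001-3093000, fork direction was 0.68 (SD 0.66, n = 4) in rif1 deletion at 34 °C and 0.82 (SD 0.62, n = 4) in wild type at 34 °C, positive in all of these libraries. By polymerase, the mean in wild type at 34 °C was 0.29 with Pol delta and 1.35 with Pol epsilon. On balance the bias in this block was against the coding direction of taz1, which lies on the reverse strand, but it was weak with Pol delta. In chrI:3084001-3087000, left of taz1, the polymerases had opposite signs in wild type at 34 °C, -0.58 with Pol delta and 0.74 with Pol epsilon. None of the 8 blocks around taz1 passed in rif1 deletion, or in stn1-226 rif1 deletion against stn1-226, at 25 °C or 34 °C by edgeR or by DESeq2, and 0 had an unadjusted edgeR p under 0.05.

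In taz1 deletion 5 of 9 blocks around rif1 and 1 of 8 around taz1 passed, where 62.1% of all blocks passed. Left of the site fork direction was higher, by 0.61 in chrI:2754001-2757000 and 1.34 in chrI:2757001-2760000. Right of it fork direction fell by 1.62 in chrI:2763001-2766000, by 1.3 in chrI:2766001-2769000 and by 0.72 in chrI:2769001-2772000. In all 5 blocks the change was toward 0. With Pol delta alone chrI:2754001-2757000 (0.69) and chrI:2769001-2772000 (-0.51) did not pass. Blocks of 5 bins from the same starts, which cover only the first part of each, did not pass either (0.36 and -0.87). In the taz1 block chrI:3090001-3093000, of which taz1 deletion libraries hold only the edge, fork direction was -0.14 to 0.88 and fell by 0.52 (SE 0.17, adjusted p = 0.0123, edgeR), a difference of 0.1 with Pol delta alone. It did not pass without taz1 deletion Pol delta replicate 1 (-0.34) or Pol epsilon replicate 2 (-0.43).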

How the data were processed

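Ribonucleotide-marked DNA ends were measured in 36 libraries, each deposited as whole-number counts of ends per 300 bp bin and strand (72 files). The authors aligned reads with Bowtie2, per the submitters' processing notes. Bowtie2's version, its options and the build were not given in the sources at hand. Positions were read on ASM294v3 of RefSeq, and 50000 bp were added in the taz1 deletion files. No column belongs to another sample.

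Members and lists were chosen with earlier results of these data known. Groups follow the labels. Ends per gene, bin, 3 kb block and initiation site were fitted over all features with edgeR 4.0.16 (quasi-likelihood test, TMM, Benjamini-Hochberg adjusted p under 0.05, mean of at least 10 ends) in R 4.3.3, with DESeq2 1.42.0 as an alternative and Python 3.11.15 for levels. Fits without taz1 deletion used 32 libraries. Each contrast averages the difference seen with Pol delta and that seen with Pol epsilon. The fits were tested on simulated data. Alternatives were other scalings, filters, block sizes, 1 polymerase, a replicate block and leaving out each library. Strand fits, the crossed pairing and the fits without replicate 2 of wild type at 25 °C were chosen after seeing the data.

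Named genes were rif1, taz1, genes overlapping the windows where a test passed or nearest to a site, the 3 genes most alike in log2(level + 0.01), and both lists. Further ones (tpz1, ter1 and a bin of rif1) were chosen after their values were seen or for their telomere role. Deviations of same-numbered libraries correlated at 0.7 to 0.84 at 34 °C and at 0.73 and 0.61 between stn1-226 rif1 deletion and stn1-226 at 25 °C. Labels give no shared batch or day for a number. Depth limits precision, and floors cover counting error only.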

Additional observations from a re-analysis of the deposited data

Results flagged for a closer look

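In the rif1 bin chrI:2767201-2767500, replicate 2 of Pol delta in stn1-226 at 25 °C had a level of 3.21, far from the other 3 libraries of its group, and replicate 1 of Pol delta in wild type at 25 °C had 2.08. These were 2 of 63 groups of 4 libraries examined for a distant library, and chance alone would pick about 1 in 20.

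The ura4 gene lies outside both windows, and its ends entered no comparison of the members. Its level was 1.26 in Pol delta replicate 2 and 0.272 in Pol epsilon replicate 2 of wild type at 25 °C, and 0.117 in Pol delta replicate 2 of wild type at 34 °C, although all are listed as ura4-D18. The source of these ends was not tested.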

How the results depend on the processing

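The losses of rif1 in rif1 deletion and of taz1 in taz1 deletion kept their direction and call under every alternative run. With DESeq2, 426 genes and 4852 bins were called in rif1 deletion at 25 °C, against 4 and 18 with edgeR, and 21 against 14 bins of the rif1 window. That group holds the 2 libraries whose ends followed G+C content most. At 34 °C DESeq2 called 8 genes against 4. In stn1-226 rif1 deletion against rif1 deletion at 25 °C it called 336 genes and 3908 bins, against 30 and 76, and in taz1 deletion 252 bins against 134. For stn1-226 rif1 deletion against stn1-226, the rif1 difference was 0.09 at 25 °C and 0.01 at 34 °C with Pol epsilon alone, and -0.08 to 0.02 at 34 °C when 1 library was left out. Bins of the rif1 window lower in rif1 deletion at 25 °C, and higher in stn1-226 rif1 deletion than in rif1 deletion at 25 °C, numbered 14 to 23 when 1 library was left out, with 23 in both cases without rif1 deletion Pol epsilon replicate 1. The block chrI:2772001-2775000 in rif1 deletion at 25 °C was 1.19 with Pol delta alone and 0.55 with Pol epsilon alone. A block of 5 bins from the same start, which covers only its first part, was 0.85, and none of these values passed. With 1 library left out the 3 kb block was 0.68 to 1.05. At 34 °C the block of 20 bins from the same start, which takes in the next 3 kb block too, passed (0.43). In stn1-226 rif1 deletion against stn1-226 the block chrI:2772001-2775000 was 0.05 with Pol delta alone at 25 °C. With 1 library left out it was -0.28 to 0.23 at 25 °C and -0.03 to 0.17 at 34 °C. The taz1 block chrI:3090001-3093000 was 0.1 with Pol delta alone. With the flanks as divisor, rif1 in wild type was 1.07 at 25 °C and 1.04 at 34 °C. The cause of these shifts was not tested. With the replicate block, rif1 fell by 4.57 and 4.63 and taz1 by 4.99, and no call of rif1 or taz1 changed. In the 25 °C comparisons that use rif1 deletion, deviations of same-numbered libraries correlated at only 0.02 to 0.14, so numbers were not shown to pair them. There the replicate block moved bins called from 18 to 2715 in rif1 deletion against wild type. In stn1-226 rif1 deletion against rif1 deletion it moved genes from 30 to 78 and bins from 76 to 2256. In stn1-226 against wild type at 25 °C same-numbered libraries deviated in opposite directions (-0.78 and -0.71), and in a fit of those libraries alone genes called were 4 with no block, 2 with the block by number and 0 with crossed numbers (29 with no block and 30 with the block in the fit of 32 libraries).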
